A study of Mus musculus with 31 samples.

Results

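The outer olfactory nerve layer (outer ONL) was compared with the trigeminal nerve in mouse embryos at E16.5, late in gestation, across all genes that could be tested. The comparison used 7 of the 31 libraries of the series, 4 labelled outer ONL and 3 labelled trigeminal nerve. Both groups came from embryos that carry a Sox10:Histone2BVenus bacterial artificial chromosome transgene, which places a fluorescent histone in the nuclei of cells that express Sox10. No other genotype, strain or treatment is given for them, and both groups were collected at the same stage. Fluorescent cells guided the laser cuts, and each library held tissue of 4 to 7 pooled cryosections of 8 µm. The 4 outer ONL pieces came from 4 embryos and lay furthest from the olfactory bulb, and the 3 trigeminal pieces came from 3 embryos and were nerve branches close to the olfactory system. They were cut from sections that also held the ONL, so the groups share embryos, but no label says which libraries share one. The pieces were bulk tissue. By the study's own account the cut between inner and outer ONL did not follow a visible border and did not part inner from outer OECs, and pieces also took in tissue next to the nerve. Of the 47729 genes in the table, 31320 had a count at E16.5 and 17800 passed the filter on low counts and were tested.

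Olfactory ensheathing cells (OECs) are the glia of the olfactory nerve. They come from the neural crest, as Schwann cells do, and like them they depend on the transcription factor Sox10. OECs wrap large bundles of thin olfactory axons together without making myelin, and accompany them from the olfactory mucosa into the ONL on the surface of the olfactory bulb. Schwann cells of the trigeminal nerve, which carries facial sensation and motor fibres to the jaw muscles, sort larger axons one by one, and around birth many of them start to form myelin. The comparison of the 2 nerves asked in which genes OECs of the bulb surface and Schwann cells differed at this stage.

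Total counts were 14808477 to 16628064 in outer ONL and 30221586 to 32508725 in trigeminal nerve, so that a given level rests on fewer counts in outer ONL. Mitochondrial genes took 0.653% to 1.02% and 0.674% to 0.939% of the counts. Levels are CPM, counts scaled to the size of the library with the TMM factors of edgeR, a method that sets the bulk of genes level between libraries. Counts up to 3 were taken as no different from 0, which comes to 0.176 to 0.207 CPM in outer ONL and 0.103 to 0.104 CPM in trigeminal nerve and covers counting error only. Across the 10538 genes with higher mean levels, replicates correlated at 0.929 to 0.978 in outer ONL and 0.963 to 0.979 in trigeminal nerve. Not all libraries of a group were alike. Outer ONL libraries 2 and 4 held more RNA of neuron genes than libraries 1 and 3, outer ONL library 1 held less of cartilage and smooth muscle genes than the other 3, and the values that rest on these libraries are given below with and without them. By sex-linked genes, outer ONL library 3 and trigeminal nerve library 2 came from female and the others from male embryos.

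Of 17800 genes, 5579 (31.3%) had an adjusted p under 0.05 in the quasi-likelihood test of edgeR after Benjamini-Hochberg adjustment. Levels of 2695 genes (15.1%) were higher and of 2884 (16.2%) lower in outer ONL than in trigeminal nerve. Such genes are called higher or lower here. Without outer ONL libraries 2 and 4, a choice made after seeing the data, 1908 were higher and 2348 lower. Levels of 6390 genes (35.9%) did not overlap between the 4 and the 3 libraries. Among the called genes, 1911 were higher and 1894 lower by at least 1 on the log2 scale, which is a change of 2-fold, and 755 and 479 by at least 3. In trigeminal nerve, 297 called genes had 3 or fewer counts in every library, and in outer ONL 103. With scaling by library totals in place of TMM, the median over all genes moved from -0.0039 to 0.13 on the log2 scale and the split of calls from 2695 higher and 2884 lower to 3503 and 2304. With upper quartile scaling the split was 3077 and 2569. In the text below, a level with ± is the mean and SD over the 4 outer ONL or the 3 trigeminal nerve libraries, levels listed one by one are in the order of the replicate numbers with outer ONL first unless stated, and a log2 value is the log2 fold change of outer ONL minus trigeminal nerve. In these bulk pieces, fewer cells of a type and less RNA per cell cannot be told apart for any gene below.

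**Figure D1:**
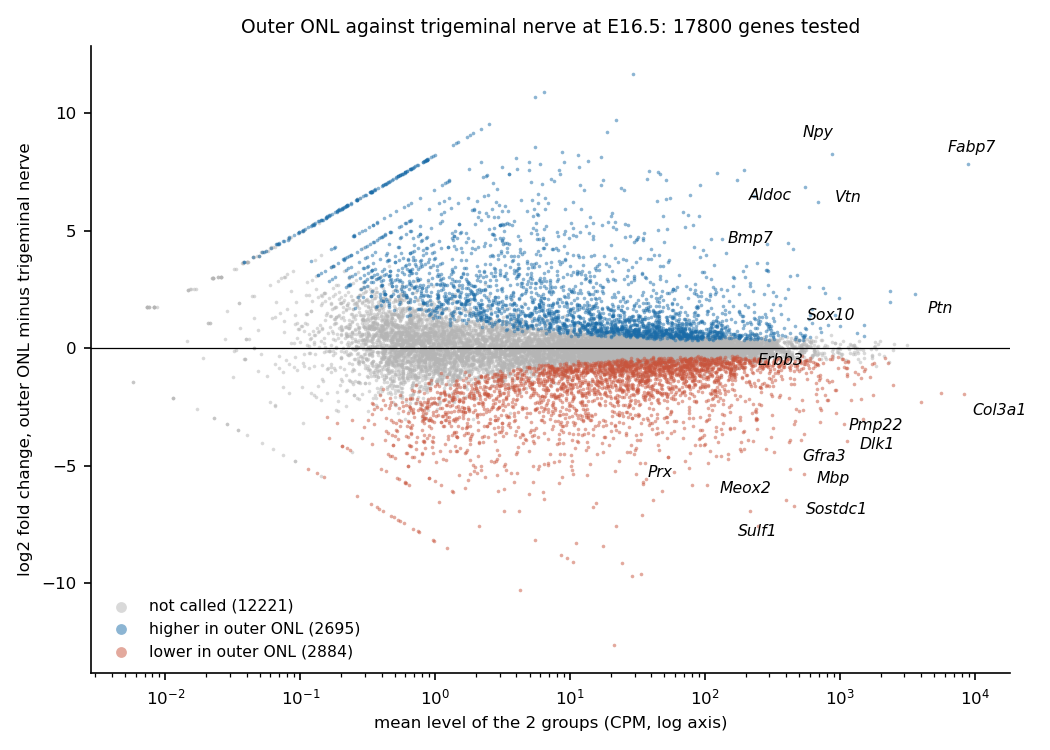
Each point is 1 of the 17800 genes tested, with the mean level of the 2 groups in CPM on a log axis against the log2 fold change of outer ONL minus trigeminal nerve. Blue points are the 2695 genes called higher and red points the 2884 called lower; Fabp7 stands alone at the upper right, and the straight rows of points at the left are genes with no or few counts in 1 group.

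The 15 largest rises took in glial lipid and sugar metabolism genes, secreted proteins and membrane transporters. Fabp7 (ENSMUSG00000019874, chromosome 10 from 57784881 to 57788450 in GRCm38), the brain lipid-binding protein and an early marker of OECs and radial glia, was at 23400, 15930, 12980 and 18360 CPM in outer ONL libraries 1 to 4 and 87.1, 67.2 and 80.8 CPM in trigeminal nerve libraries 1 to 3. Every outer ONL library lay far above every trigeminal one, with a log2 fold change of 7.82 (SE 0.39, adjusted p = 6.25e-10). Npy (ENSMUSG00000029819, chromosome 6 from 49822710 to 49829507), which encodes neuropeptide Y and marks OECs of the inner ONL, measured 2625, 1777, 1236 and 1342 CPM against 3.31, 6.43 and 7.44 CPM. Library 1 was the highest of the 4, and the groups were far from overlap (log2 fold change 8.25, SE 0.46, adjusted p = 1.63e-09). Prss56 (ENSMUSG00000036480, chromosome 1 from 87183313 to 87188405), a serine protease gene known from OECs of the inner ONL and from radial glia, had 522, 235, 415 and 363 CPM against 0.138, 3.97 and 1.83 CPM. Its trigeminal values varied more than its outer ONL values, and the log2 fold change was 7.59 (SE 0.83).

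Oc90 (ENSMUSG00000015001, chromosome 15 from 65876053 to 65912397), named after the matrix protein of the ear's otoconia, had 122, 33.5, 51.9 and 26.6 CPM in outer ONL and 1 count in all 3 trigeminal libraries together. Library 1 was well above the other 3, and the gene was at least 564-fold higher than the floor of 3 counts allows for trigeminal nerve. Aldoc, the brain form of aldolase and an astrocyte enzyme, had 431, 314, 264 and 352 CPM against 2.13, 3.22 and 1.73 CPM, with no outer ONL library near the trigeminal ones (log2 7.17). Nell2, a secreted ligand of Robo3 that repels axons, had 1555, 790.1, 1122 and 876 against 5.79, 13.1 and 9.03 CPM (log2 6.86). Bmp7, a bone morphogenetic protein, had the smallest adjusted p of all genes (3.21e-10), with 209.6, 183, 228 and 228 CPM against 6.51, 8.96 and 10.1 CPM and a log2 fold change of 4.63 (SE 0.20).

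The rule for the 15 largest rises (a mean of at least 50 CPM in outer ONL and no overlap between groups) also took in several membrane and transport genes. Slc6a13, the GABA transporter of meninges and liver, was at 183 ± 29.0 against 1.49 ± 0.203 CPM, and Slc38a5, a glutamine transporter, at 92.1 ± 38.2 against 0.539 ± 0.0546 CPM. Gjb6, the gap junction protein connexin 30 of astrocytes and leptomeninges, was at 88.7 ± 25.1 against 0.492 ± 0.466 CPM. Further members were Zpld1, a zona pellucida domain protein (244 ± 33.1 against 1.40 ± 0.981 CPM), Mybpc1, a myosin-binding protein best known from slow skeletal muscle (457 ± 95.0 against 5.23 ± 2.08 CPM), and Psmb11, the thymus form of a proteasome subunit (73.3 ± 13.3 against 0.493 ± 0.123 CPM). Ptgds, the prostaglandin D2 synthase that also carries small lipids, was at 153 ± 33.1 against 1.65 ± 0.630 CPM, and the long noncoding RNA 2700046A07Rik at 103 ± 36.1 against 0.711 ± 0.104 CPM. Spock2, a testican of the extracellular matrix, was named for its small adjusted p (8.12e-10), with 75.9 ± 9.85 against 4.13 ± 0.479 CPM.

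The study grouped 32 genes by where in situ hybridization found them at E16.5, and all of them were called here. The 7 found in OECs and in trigeminal Schwann cells alike have no direction set by their category, and the others were called in the direction of theirs. These lists were chosen with the same libraries in view, so the counts are a description and not independent evidence. All 8 genes seen in ONL-OECs and in no other glia were higher, a direction called for 15.1% of all genes, with a median log2 fold change of 5.76. Vtn, the matrix protein vitronectin, had 1675, 1301, 1029 and 1433 CPM against 21.8, 17.3 and 16.7 CPM. Hes5, a Notch effector, had 31.5, 21.9, 28.0 and 33.9 CPM against 0.379, 0.445 and 1.31 CPM, without overlap. Lypd6, which strengthens Wnt signalling at the membrane, was higher by log2 4.63, Nkd2, an inhibitor acting on Dishevelled, by log2 2.52, and Wif1, a secreted Wnt inhibitor, by log2 1.80.

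All 10 genes seen in all OECs but not in trigeminal Schwann cells were higher as well, with a median of 3.13. Ptn encodes pleiotrophin, a heparin-binding growth factor, and Ptprz1 its receptor phosphatase. Ptn had 7809, 5420, 5354 and 5164 CPM against 1392, 1244 and 1017 CPM, so the trigeminal nerve held a substantial level too (log2 fold change 2.29, SE 0.24). Ptprz1 had 464, 424, 462 and 483 CPM against 86.4, 104 and 84.1 CPM (log2 2.32). Adgrg1, an adhesion G protein-coupled receptor, was higher by log2 3.88, Frzb, a secreted Wnt antagonist, by log2 3.60, and Sema6a, a transmembrane semaphorin, by log2 2.98. The Notch effectors Hey2 and Heyl were higher by log2 3.27 and log2 1.63, and Dpysl3, a collapsin response mediator, by log2 1.87.

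The 7 genes seen in all OECs and in trigeminal Schwann cells were also all higher in outer ONL, with a median of 2.35. Zbtb20, a transcription factor gene, was higher by log2 3.30, Cntn1, the adhesion protein contactin, by log2 2.52, Mmd2 by log2 2.35, Sox5 by log2 2.34 and the Src-family kinase Fyn by log2 1.45. Sox10 itself showed the smallest difference of this group. Its levels were 562, 649.6, 529 and 685 CPM in outer ONL and 322, 281 and 349 CPM in trigeminal nerve, without overlap (log2 fold change 0.93, SE 0.22, adjusted p = 0.00291). In a fit of all 31 libraries of the series the Sox10 difference did not pass (adjusted p = 0.157), and neither did that of Wif1 (adjusted p = 0.223). That fit adds libraries of earlier stages, left out of the main fit because earlier work found some at odds with their labels. Whether they widened the spread was not tested.

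The 5 genes seen in Schwann cells of the trigeminal nerve and in OECs of the mucosa, and absent from ONL-OECs, were all lower, with a median of -3.54. Sostdc1, a secreted antagonist of both Wnt and Bmp signals, fell furthest, from 1134, 787 and 784 CPM in trigeminal nerve to 1.17, 10.2, 14.7 and 8.15 CPM in outer ONL (log2 fold change -6.71). Sema3b, a secreted axon guidance semaphorin, had 25.01, 39.3, 34.8 and 23.4 CPM against 378, 332 and 361 CPM (log2 -3.54), and Sfrp5, another Wnt antagonist, fell by 2.92 on the log2 scale. Hes1 was the weakest of the 32 genes. It had 11.1, 21.5, 15.6 and 17.5 CPM against 47.7, 21.6 and 26.4 CPM, with outer ONL library 2 and trigeminal nerve library 2 nearly equal, and an adjusted p of 0.0372 that rose to between 0.0629 and 0.289 without outer ONL library 1, 3 or 4 or without trigeminal nerve library 1, 1 at a time. Both genes seen only in trigeminal Schwann cells were lower. Mbp, the myelin basic protein gene, had 17.2, 25.2, 34.2 and 26.3 CPM against 1308, 874 and 989 CPM, and Prx, the periaxin gene of the myelinating Schwann cell membrane, 3.52, 4.84, 3.48 and 5.28 against 142, 159 and 143 CPM.

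**Figure D2:**
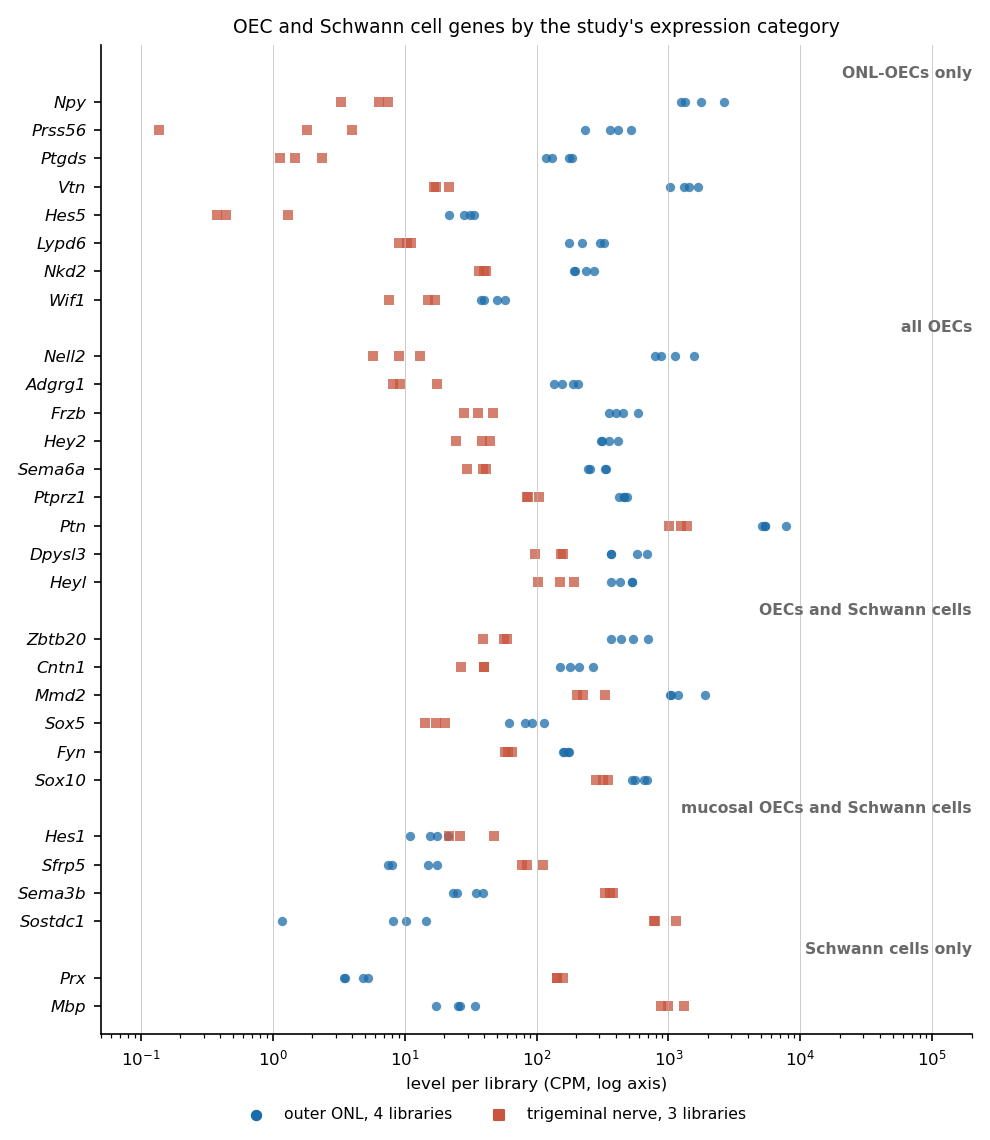
Levels in CPM on a log axis for 29 of the 32 genes that the study placed by in situ hybridization, in its 5 categories, with 1 circle for each of the 4 outer ONL libraries and 1 square for each of the 3 trigeminal nerve libraries. In the top 3 categories the circles lie to the right of the squares for every gene shown, and in the bottom 2 to the left, with Hes1 the closest.

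Defining markers fixed for each label were present in its group: Sox10, Fabp7, Npy, Prss56, Frzb and Erbb3 for OECs in outer ONL, and Sox10, Erbb3, Mbp, Prx, Pmp22, Egr2 and Dhh, with a low level of Pou3f1, for Schwann cells in trigeminal nerve. Npy and Prss56 are known from OECs of the inner ONL, so their levels here (1745 ± 632 and 384 ± 119 CPM, beside 1584 ± 419 and 644 ± 229 CPM in inner ONL) go against reading the pieces as outer OECs alone, and outer ONL names only where a piece was cut. A list of 16 genes of neural crest glia gave 4 higher and 6 lower genes. Besides Sox10 and Fabp7, Gas7 was higher (adjusted p = 0.0108, and 0.0578 without trigeminal nerve library 3). Erbb3, the neuregulin receptor that both kinds of glia use, had 215, 174, 236 and 189.8 CPM in outer ONL and 173, 222 and 188 CPM in trigeminal nerve, overlapping ranges (log2 fold change 0.06, SE 0.21, adjusted p = 0.851). Ednrb, the endothelin receptor B of neural crest cells, also overlapped, at 684 ± 192 and 798 ± 164 CPM . The lower genes were led by Gfra3, the receptor of the growth factor artemin, at 2.56, 33.3, 41.8 and 16.9 against 866, 768 and 859 CPM, a log2 fold change of -5.13. Cryab, a small heat shock protein abundant in Schwann cells, (log2 -4.27), Ngfr, the p75 neurotrophin receptor of immature Schwann cells (log2 -3.09), Sox2 (log2 -3.13) and Itga4, an integrin of migrating crest cells (log2 -0.74), were also lower. Of 8 genes of the neuregulin and ErbB family, 3 were lower and the others not called (37.5% called, near the 31.3% of all genes). The lower ones were Egfr (log2 -3.07), Hbegf (log2 -1.36) and Erbb2 (log2 -0.76).

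Genes of myelin were lower in outer ONL for the most part. Of 23 tested genes of myelin and of the step before it, 16 were lower and 2 higher in outer ONL, with a median log2 fold change of -2.75 beside -0.0039 over all genes. Pmp22, a membrane protein of peripheral myelin, was high in both nerves, at 245, 233, 271 and 219 CPM and 2092, 1337 and 1464 CPM, and still did not overlap (log2 -2.75, SE 0.18, adjusted p = 1.04e-08). Cldn19, the tight junction claudin of Schwann cells, was at or under 3 counts in every outer ONL library and at 13.4, 9.89 and 9.41 CPM in trigeminal nerve, at least 52.6-fold lower in outer ONL. Mag, the myelin-associated glycoprotein, (log2 -4.46), Mal (log2 -3.63) and Ugt8a, which makes the myelin lipid galactosylceramide (log2 -2.21), were lower too.

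Among these genes were regulators of the step into myelination. Egr2, the master regulator of peripheral myelin, had 0.622, 0.726, 1.45 and 1.35 CPM against 11.8, 17.9 and 16.4 CPM, and Dhh, the hedgehog ligand of Schwann cells, 3.11, 2.48, 4.99 and 3.93 against 37.4, 33.2 and 49.8 CPM, both without overlap. Pou3f1, which acts just before Egr2, was low in both nerves and was not called (0.778 ± 0.986 against 2.47 ± 0.903 CPM), but was lower without outer ONL library 2 (log2 -3.03, adjusted p = 0.0043). The 2 higher members were Cmtm5 (444 ± 106 against 199 ± 50.7 CPM) and Gjb1, connexin 32 (6.10 ± 2.50 against 0.230 ± 0.160 CPM), both also known from myelinating cells of the brain. A list of 18 genes of immature and injured Schwann cells had 13 lower and 2 higher. Among the lower ones were Itgb8 (log2 -2.33), the axonal adhesion molecule L1cam (log2 -2.34) and Cadm4, which holds Schwann cells to axons (log2 -2.93). The higher ones were Ncam1, which was not called without outer ONL library 2 or 4 or trigeminal nerve library 2 or 3 (adjusted p = 0.0715 to 0.134), and Gfap, which was low in both nerves (1.93 ± 0.548 against 0.712 ± 0.351 CPM) and not called without outer ONL library 3 or 4 or trigeminal nerve library 2 (adjusted p = 0.0576 to 0.118).

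Genes of astrocytes and radial glia leaned the other way by count. Of 20 tested, 10 were higher and 5 lower, with a median of 1.30. The summed level of the list overlapped, at 5868 to 7354 CPM in outer ONL and 6194 to 6708 CPM in trigeminal nerve. Aqp4, the water channel of astrocyte endfeet, had 34.9, 22.6, 44.4 and 31.9 CPM against 0.241, 0.308 and 0.242 CPM, close to silence in trigeminal nerve (log2 6.95). Glul, glutamine synthetase, was higher by log2 3.31, Gja1, connexin 43, by log2 3.12 and Ndrg2 by log2 2.56. The lower members were Apoe, Sparcl1, Clu, S1pr1 and Vim. Of 14 genes of the oligodendrocyte lineage, 5 were higher and 2 lower. Sox8, the relative of Sox10, was at 72.5 ± 11.7 against 18.4 ± 1.39 CPM and Zfp488, a factor of oligodendrocyte formation, at 33.3 ± 6.13 against 4.67 ± 0.986 CPM, both higher, and Bcas1, a gene of newly forming myelin, was lower (4.39 ± 1.17 against 57.5 ± 13.9 CPM).

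The 15 largest falls took in genes of connective tissue, bone, muscle and myelin. Sulf1, an enzyme that trims heparan sulphate, had 1.10, 3.08, 7.29 and 2.52 CPM against 350.1, 569.9 and 365 CPM (log2 -6.93), and Mfap5, a microfibril protein, 3.04, 8.35, 13.6 and 10.6 against 975, 668 and 721 CPM (log2 -6.46). In both genes the lowest trigeminal library was far above the highest outer ONL library. Thbs4, a thrombospondin of tendon and muscle, was at 1.10, 0.605, 1.31 and 0.704 against 81.5, 71.9 and 89.3 CPM with little spread in either group (adjusted p = 5.42e-10). Meox2, a homeobox gene of limb muscle and mesenchyme, had 5.18, 2.48, 3.42 and 3.46 CPM against 224, 206 and 180.1 CPM. Wnt2, a Wnt ligand, was at or under 3 counts in every outer ONL library and at 54.0, 67.8 and 78.5 CPM in trigeminal nerve, at least 322-fold lower. Other members of the 15 were Col5a3, a collagen chain, at 2.75 ± 1.71 against 157 ± 11.8 CPM, the secreted proteins C1qtnf3 (1.37 ± 0.793 against 94.8 ± 22.6 CPM) and Clec3b (1.23 ± 0.524 against 68.1 ± 3.48 CPM), the transcription cofactor Vgll3 (1.30 ± 1.08 against 68.0 ± 7.12 CPM) and Pdlim3, a protein of muscle Z-discs (1.504 ± 1.18 against 71.2 ± 6.25 CPM). Rab38 and Ctnnal1 were named for their small adjusted p, with log2 fold changes of -4.57 and -3.38. Rab38 is a GTPase of pigment granule traffic, and Ctnnal1 is related to alpha-catenin.

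In 2 of the large falls the trigeminal libraries disagreed with each other. Ibsp, the bone sialoprotein, was at 759, 58.0 and 647 CPM in trigeminal nerve and 0, 9.98, 0 and 0.235 CPM in outer ONL, so trigeminal library 2 lay about an order of magnitude under the other 2. Mpo, the myeloperoxidase of neutrophil precursors, was at 117, 54.3 and 1.07 CPM in trigeminal nerve and at or under 3 counts in every outer ONL library, so library 3 lay far below the others. The groups did not overlap in either gene. Lhx8, a LIM homeobox gene of the jaw and the ventral forebrain, had no count in any outer ONL library and 42.1, 44.8 and 40.5 CPM in trigeminal nerve, at least 205-fold lower. Pax3, a gene of neural crest and muscle precursors, had 17.5, 17.3 and 21.5 CPM in trigeminal nerve, at least 90.7-fold above outer ONL.

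Fibroblast and mesenchyme genes were lower as a group. Of 25 tested, 20 were lower and the others not called, with a median of -1.90, and their levels summed to 11130 to 18640 CPM in the outer ONL libraries and 47290 to 51750 CPM in the trigeminal ones. The defining collagens Col1a1 (701 ± 395 against 2786 ± 733 CPM), Col1a2 (1341 ± 528 against 6639 ± 191 CPM) and Col3a1 (3438 ± 1388 against 13250 ± 2767 CPM) were abundant in both groups, and Dcn and Lum, small proteoglycans of fibroblasts, were not called, at 1304 ± 393 against 1280 ± 164 CPM and 313 ± 79.0 against 312 ± 29.8 CPM. Ogn, osteoglycin (log2 -3.99), Dlk1 (log2 -3.93) and Fbn1, fibrillin-1 (log2 -3.89), were among the lower. How much of any other difference moved with this connective tissue share was not tested. Of 44 collagen genes, 22 were lower and 4 higher. Col5a3 (log2 -5.83), Col14a1 (log2 -3.06) and Col1a2 (log2 -2.31) stood for the lower ones, and Col2a1, the cartilage collagen, was higher by log2 3.29.

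Matrix receptors and adhesion molecules changed in both directions. Among 11 laminin chains, 6 were lower, led by Lama2, the chain of the Schwann cell basement membrane (48.6 ± 14.8 against 223 ± 13.46 CPM), and 3 higher, among them Lama1 (59.9 ± 10.1 against 2.36 ± 0.898 CPM) and Lamc3 (11.3 ± 5.29 against 0.445 ± 0.575 CPM), chains of early and of meningeal basement membranes. Of 28 integrin genes and relatives by name, 13 were lower, including Itga6 (log2 -2.14) and Itgav (log2 -2.12), subunits of a laminin and of a vitronectin receptor, and 4 higher, led by Itgbl1 (log2 2.89). Of 34 cadherins and non-clustered protocadherins, 17 were lower and 4 higher, or 7 higher without outer ONL library 1. Cdh3, P-cadherin, had 39.4, 44.5, 33.5 and 39.7 CPM against 0.241, 0.889 and 1.25 CPM, and Cdh4, R-cadherin, 6.22, 13.4, 7.43 and 14.1 against 0.0344, 0.171 and 0.173 CPM. Cdh1, E-cadherin, had 0, 0.121, 0.920 and 0.469 CPM against 13.3, 21.3 and 16.8 CPM, and Cdh17 was likewise lower (log2 -5.70).

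Imprinted genes, many of which regulate fetal growth, gave 20 lower and 3 higher of 32, with a median of -1.11. H19 had 52.6, 362, 203 and 215 CPM against 2078, 1784 and 1967 CPM (log2 -3.22), Dlk1 81.3, 115, 160.2 and 195 against 1683, 2175 and 2455 CPM and Zim1 13.04 ± 6.30 against 177 ± 38.3 CPM. Nnat, neuronatin, went the other way, at 783, 958, 612 and 817 CPM against 38.0, 32.7 and 35.4 CPM (log2 4.49). In the insulin-like growth factor family, 10 of 15 were lower, with Igf2 at 433 ± 172 against 1984 ± 108 CPM, Igfbp5 at 524 ± 147 against 2315 ± 347 CPM and Igfbp6, a binding protein that holds Igf2, at 9.66 ± 4.85 against 230.0 ± 60.5 CPM. The 2 higher members were the insulin receptor gene Insr and Igfbp2.

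Markers of some tissues around the nerves differed between the 2 kinds of piece. All 16 tested skeletal muscle genes were lower in outer ONL (median -4.35), with a summed level of 24.1 to 41.3 CPM against 279.9 to 392 CPM. Actc1, cardiac alpha-actin of fetal muscle, was at 59.9, 84.8 and 59.5 CPM in trigeminal nerve and 0, 0, 1.71 and 0.293 CPM in outer ONL, and Myog, myogenin, at 6.16, 13.8 and 17.2 and 0, 0.181, 1.45 and 0 CPM. Of 15 bone genes, 11 were lower and the others not called, with Alpl, the alkaline phosphatase of osteoblasts, at 21.8 ± 5.71 against 239 ± 39.5 CPM and Sp7, the factor that defines osteoblasts, at 4.11 ± 1.66 against 22.1 ± 5.10 CPM. Cartilage genes gave 3 higher and 3 lower of 20 (30.0% called, near the 31.3% of all genes). Col2a1 had 239, 472, 661 and 753 CPM against 47.6, 63.4 and 51.6 CPM and was higher, whereas Cnmd, chondromodulin, had 5.66, 49.5, 59.4 and 49.6 CPM against 497, 452 and 379.7 CPM and was lower. Acan, aggrecan, had 1.04, 23.2, 21.8 and 16.8 CPM against 4.00, 6.16 and 4.98 CPM, with outer ONL library 1 below and the other 3 above the trigeminal range, and was not called (adjusted p = 0.0852). Without outer ONL library 1, Acan (log2 2.04, adjusted p = 0.00583) and the matrilin gene Matn1 (log2 2.18, adjusted p = 0.00532) were called higher, and 6 genes of the list in place of 3. Skin genes gave 3 higher and 3 lower of 14 (42.9% called). Genes of supporting and gland cells of the olfactory epithelium gave 1 higher and 4 lower of 13 (38.5% called), or 2 higher without trigeminal nerve library 2. The part of muscle, bone and cartilage RNA in other differences was not tested.

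The meninges, the sheets that cover the brain and olfactory bulb, were covered by a list of 17 genes, of which 8 were higher and 6 lower. Zic4 had 20.6, 20.1, 29.4 and 20.5 CPM against 0, 0.205 and 0 CPM and Zic1 8.22, 18.4, 16.8 and 16.7 against 0.138, 0.103 and 0.0692 CPM, so both zinc finger genes were close to silent in trigeminal nerve. Both are also counted in the study's lists of olfactory bulb genes and of mesenchyme near the ONL. Slc22a6, an organic anion transporter of meninges, was at 25.04 ± 7.95 against 0.229 ± 0.252 CPM, and Slc22a8, its neighbour in function, had 13.4, 9.92, 11.2 and 16.8 CPM in outer ONL and no count in trigeminal nerve, at least 124-fold higher. Among the lower members were Crabp2 and Aldh1a2, which makes retinoic acid (148 ± 61.1 against 447 ± 68.5 CPM). The sheath of the nerve itself, the perineurium and endoneurium, gave 10 lower and 6 higher of 18. Cldn1, the claudin of the perineurial barrier, had 31.2, 20.99, 35.5 and 23.1 CPM against 511, 422 and 346 CPM (log2 -3.94), and Clec3b, tetranectin, fell by 5.78 on the log2 scale. Higher members included Slc2a1, the glucose transporter of barrier cells (log2 1.52), and Apod, apolipoprotein D (641 ± 22.0 against 145 ± 17.5 CPM).

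Lists of vessel genes gave unlike counts. Of 20 general endothelial genes, 12 were lower and the others not called (median -0.91). Pecam1 had 58.3, 55.1, 98.6 and 59.7 CPM against 116, 246 and 165 CPM, without overlap, and was not called without outer ONL libraries 2 and 4 (adjusted p = 0.0689). Cdh5, VE-cadherin, was at 19.6 ± 3.11 against 60.0 ± 4.799 CPM. Plvap, a protein of leaky capillaries, fell by 1.78 on the log2 scale. Of 18 genes of blood-brain barrier endothelium, 12 were higher and 1 lower (median 2.78), with 0 lower without trigeminal nerve library 1 or without outer ONL libraries 2 and 4. Mfsd2a, the lipid transporter that keeps barrier vessels tight, was at 57.3 ± 13.46 against 4.54 ± 0.593 CPM, and Lef1, a transcription partner of beta-catenin, had 59.2, 62.7, 65.5 and 76.7 CPM against 2.03, 3.87 and 2.28 CPM. Apcdd1, a Wnt antagonist, was at 138 ± 23.4 against 3.89 ± 0.520 CPM and Tnfrsf19, a Wnt target, at 546 ± 172 against 25.2 ± 0.557 CPM. Several of these genes are also used by glia and meninges, and their cell of origin cannot be read from bulk pieces, so the count does not tell kinds of vessel apart. Cldn5, the claudin of endothelium, was not called (154 ± 35.7 against 108 ± 55.4 CPM).

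Mural cells, the pericytes and smooth muscle on vessels, gave 12 lower and 2 higher of 17, or 1 higher without outer ONL library 1 or 2 or trigeminal nerve library 1 or 3. Acta2, smooth muscle actin, had 2.14, 72.2, 75.6 and 68.8 CPM against 391, 725 and 621 CPM, with outer ONL library 1 far below the other 3 and every outer ONL library below every trigeminal one. Pdgfrb, a pericyte receptor, was at 69.3 ± 14.8 against 155 ± 37.8 CPM and Rgs5, another pericyte gene, was not called, at 132 ± 36.4 against 165 ± 50.8 CPM. The higher members included Vtn, which is also in the study's list of ONL-OEC genes. Of 21 macrophage and microglia genes, 10 were lower and the others not called, with Lyz2, a lysozyme gene of myeloid cells, at 68.0 ± 6.82 against 406 ± 19.8 CPM and Ptprc at 3.16 ± 0.631 against 17.6 ± 4.96 CPM. Without trigeminal nerve library 1 the number lower was 6. Csf1r, the growth factor receptor of macrophages, was not called (62.2 ± 25.1 against 96.5 ± 11.7 CPM), but was lower without outer ONL library 3 (log2 -0.93, adjusted p = 0.0165). Of 10 red cell genes, 0 were called in edgeR's test with Benjamini-Hochberg adjustment, 0 had an unadjusted p under 0.05, and DESeq2 called 0. With 1 library left out, 1 of them was called without trigeminal nerve library 1 and 1 without library 2.

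**Figure D3:**
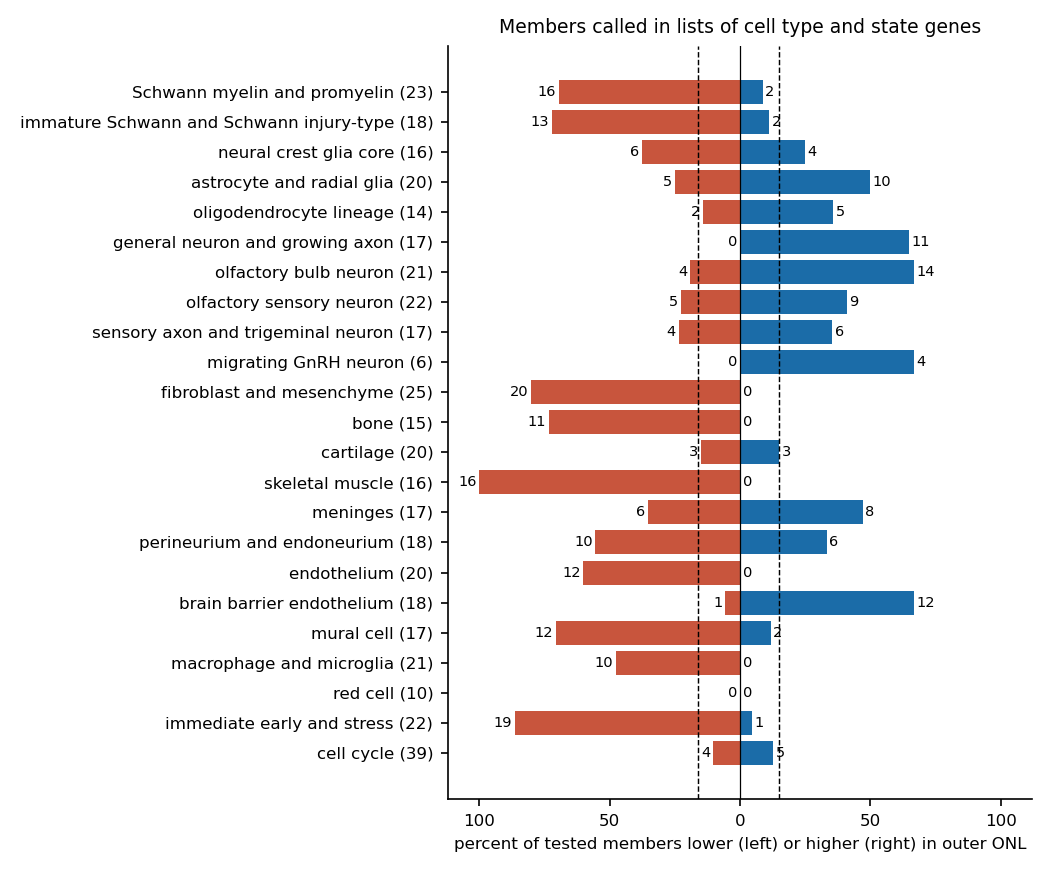
Bars show the percent of tested members called lower (red, left) or higher (blue, right) in outer ONL for 23 lists of cell type and state genes, with the number called beside each bar and the number tested in brackets. Dashed lines mark the share of all 17800 genes called in each direction, 16.2% lower and 15.1% higher; muscle, fibroblast, myelin and immediate early genes reach far past the left line, and barrier endothelium, bulb neuron and general neuron genes past the right one.

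Neuron genes were higher in outer ONL, but unevenly between its libraries. Of 17 general neuron and growing axon genes, 11 were higher and the others not called, with a median of 2.30. Tubb3, the neuronal tubulin, had 10.2, 192, 21.9 and 92.0 CPM against 4.99, 5.44 and 4.78 CPM, and Mapt, the axonal protein tau, 13.3, 136, 13.54 and 111 against 3.17, 1.47 and 2.28 CPM. In both genes outer ONL libraries 2 and 4 were at least 4-fold above libraries 1 and 3, which still lay above trigeminal nerve. Gap43, the growth cone protein, was high in libraries 2 and 4 (40.6, 302, 48.6 and 205 CPM) and had 166, 193 and 220.3 CPM in trigeminal nerve, so libraries 1 and 3 lay below the trigeminal range, library 2 above and library 4 inside it, and the gene was not called (adjusted p = 0.612). Without libraries 2 and 4 it was called lower (log2 -2.11, adjusted p = 0.00013). Without libraries 2 and 4, an alternative chosen after seeing these values, the list gave 8 higher and 2 lower with a median of 0.89. Leaving out 1 library at a time left 9 to 12 higher. Stmn2, a tubulin-binding protein of growing axons, had 40.9, 258, 39.2 and 163 CPM against 30.9, 49.5 and 49.6 CPM, and its call (adjusted p = 0.0295) was lost without outer ONL library 2 or 4 or any 1 trigeminal library (adjusted p = 0.0548 to 0.139) and its direction without libraries 2 and 4 together (log2 -0.11).

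Genes of olfactory bulb neurons showed the same split. Of 21 tested, 14 were higher and 4 lower (median 3.69), and 11 to 15 were higher with 1 library left out. Without libraries 2 and 4 the count was 3 higher and 5 lower, with a median of 1.88. Cdhr1, a cadherin-like gene of mitral cells, had 1.73, 94.2, 10.8 and 76.8 CPM against 4.89, 3.25 and 1.76 CPM, with libraries 1 and 3 close to the trigeminal range. Eomes, a factor of projection neurons, had 0.0691, 9.01, 0.131 and 2.52 CPM against 0.0344, 0 and 0.173 CPM, with libraries 1 and 3 at 3 counts or fewer and inside the trigeminal range, and Neurod6 was at or under 3 counts in trigeminal nerve, 0.0691, 9.86, 0.460 and 4.87 CPM in outer ONL and at least 36.8-fold higher. Without libraries 2 and 4 the adjusted p of Cdhr1 was 0.301, of Eomes 0.887 and of Neurod6 0.128, and that of Eomes was 0.0526 without library 2 alone. The lower members were Reln, Dlx2, Dlx5 and Meis2, with Reln at 48.6 ± 40.8 against 187 ± 14.4 CPM. Summed over the list, Reln included, levels were 34.9 to 366 CPM in outer ONL and 247 to 272 CPM in trigeminal nerve. Which part of the other higher genes moved with neuron RNA was not tested.

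**Figure D4:**
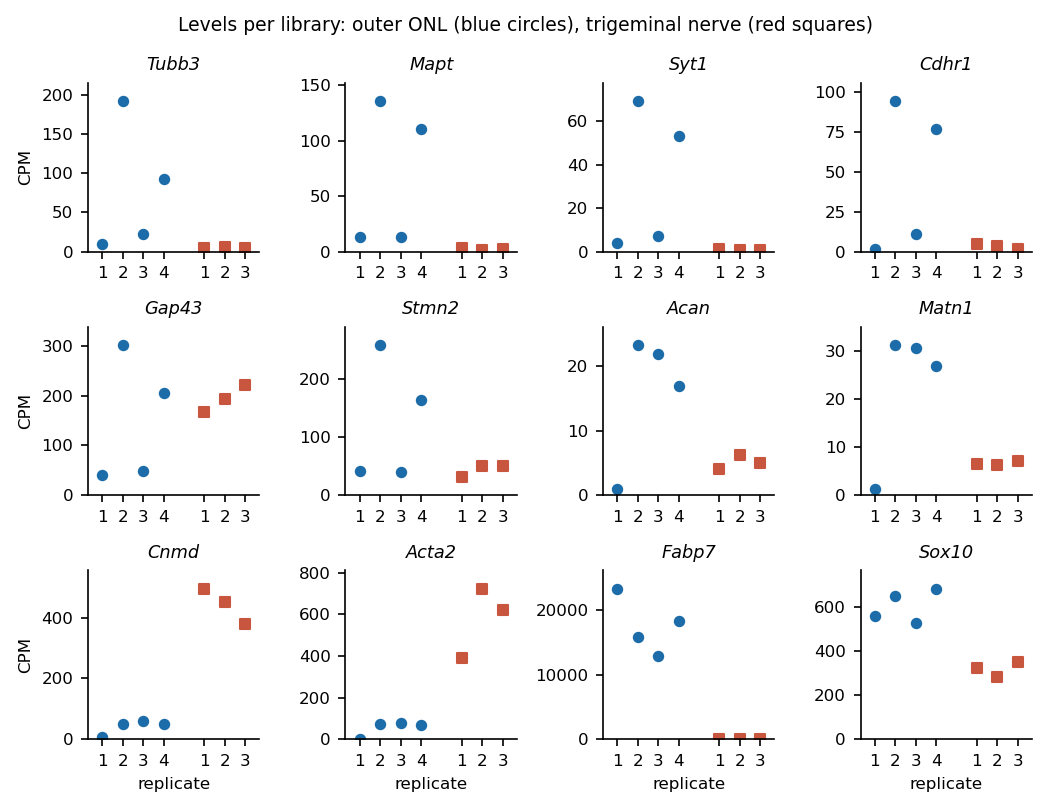
Levels in CPM by replicate, on axes that start at 0, for 12 genes, with outer ONL as blue circles and trigeminal nerve as red squares. Tubb3, Mapt, Syt1, Cdhr1, Gap43 and Stmn2 are high in outer ONL libraries 2 and 4, Acan, Matn1, Cnmd and Acta2 are low in outer ONL library 1, and Fabp7 and Sox10 differ less between the 4 libraries, with Sox10 somewhat higher in 2 and 4.

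Axons in the outer ONL come from olfactory sensory neurons, whose cell bodies lie in the nose. Of 22 of their genes, 9 were higher and 5 lower, and without outer ONL libraries 2 and 4 the number higher was 5. Omp, the olfactory marker protein of mature sensory neurons, had 12.7, 14.0, 9.59 and 11.6 CPM against 0.276, 0.479 and 1.11 CPM, alike in all 4 outer ONL libraries, and Stoml3 3.81 ± 1.47 against 0.0573 ± 0.0523 CPM. The lower members were Kirrel2, Nrp1 and 3 Ebf factors, with Ebf2 at 21.6 ± 6.71 against 221 ± 36.3 CPM. Summed over the list, Nrp1 included, levels were 212 to 343 CPM in outer ONL and 1162 to 1549 CPM in trigeminal nerve. Odorant receptor genes were rarely counted: 66 of 1090 were tested, 7 were higher and 2 lower. That was 13.6% called, below the 31.3% of all genes, and 3 were higher without outer ONL library 4 or any 1 trigeminal library. In 59 of the 66, every library of at least 1 of the 2 groups had 3 or fewer counts. Receptor levels summed to 23.4 to 38.2 CPM in outer ONL, 14.2 to 42.2 CPM in trigeminal nerve and 264 to 572 CPM in olfactory nerve. Olfr32 had 16.1, 8.77, 13.3 and 9.21 CPM in outer ONL and 0, 0.137 and 0 CPM in trigeminal nerve, while Olfr558 went the other way with 0.483, 1.57, 2.56 and 0.469 against 10.2, 31.3 and 16.3 CPM. Near-identical receptor genes can share reads, so single receptors are uncertain.

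For the trigeminal side, 17 genes of somatosensory neurons gave 6 higher and 4 lower, with 3 higher without trigeminal nerve library 3. Calca, which encodes calcitonin gene-related peptide of pain fibres, had 2.003, 7.68, 10.6 and 6.69 CPM against 189, 178 and 238 CPM (log2 -4.90), and Ntrk3, the receptor of neurotrophin-3, 3.04, 6.23, 3.75 and 3.70 against 108, 94.0 and 104 CPM (log2 -4.61). Nefl, a neurofilament of large axons, was higher, at 9.32, 19.9, 14.6 and 25.2 CPM against 6.68, 5.64 and 2.91 CPM, and was not called without trigeminal nerve library 3 (adjusted p = 0.0688) or without outer ONL libraries 2 and 4 (0.142). Gonadotropin-releasing hormone (GnRH) neurons migrate along olfactory axons to the forebrain. Gnrh1 had 0.0691, 6.41, 2.63 and 69.6 CPM in outer ONL and 0.448, 0.274 and 0.727 CPM in trigeminal nerve, with library 4 holding most of it and library 1 none to speak of, and the call (adjusted p = 0.0192) was lost without outer ONL library 4 or any 1 trigeminal library (adjusted p = 0.0512 to 0.159).

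The study also listed genes that its in situ screen found next to the glia, again chosen with these libraries in view. All 8 such genes near the trigeminal nerve were lower. Msx1, a homeobox gene of craniofacial mesenchyme, had 9.46, 9.07, 16.4 and 8.15 CPM against 118, 212 and 223 CPM, Tagln, a smooth muscle protein, 9.46 ± 5.45 against 108 ± 22.6 CPM, and Nrp1, a receptor of semaphorins and VEGF, 96.9 ± 29.1 against 838 ± 135 CPM. Of 13 genes that the screen placed in mesenchyme near the ONL and not near the trigeminal nerve, 5 were higher and 7 lower. A level in a bulk piece does not show which of its cells held the RNA, so these counts do not test that placing. The summed level of the list was 253 to 468 CPM in outer ONL and 651 to 938 CPM in trigeminal nerve. Tfap2b had 46.4, 117, 109 and 130.2 CPM against 6.99, 8.45 and 6.82 CPM, while Hhip had 0.622, 1.33, 2.17 and 1.82 against 63.1, 64.9 and 53.3 CPM and Clec11a 9.19 ± 2.75 against 160.2 ± 16.1 CPM. Of 25 genes of the olfactory bulb, 16 were higher and 5 lower, with a median of 3.08. Without outer ONL libraries 2 and 4, 11 were higher and 5 lower, with a median of 1.26. The summed level of the list was lower in outer ONL (676 to 941 CPM) than in trigeminal nerve (1138 to 1531 CPM). Among the higher ones were Tagln3, at 253, 209, 113 and 133 against 2.79, 3.90 and 4.26 CPM, and Calb2, calretinin, at 18.1 ± 8.86 against 0.298 ± 0.0733 CPM. Tagln3 was highest in library 1, unlike the neuron genes above.

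In signalling families, counts are read beside the 15.1% of all genes that were higher and the 16.2% that were lower. Of 58 Wnt ligands, receptors and modulators, 18 were higher and 22 lower, so that 69.0% were called. The higher ones held feedback targets such as Apcdd1 (167, 147, 117 and 122 against 4.00, 4.34 and 3.32 CPM), Nkd1 (81.5 ± 9.69 against 10.7 ± 3.36 CPM) and Lef1, the ligand Wnt6 (51.3 ± 9.93 against 12.3 ± 5.26 CPM) and the antagonists Frzb and Wif1. The lower ones held the ligands Wnt2, Wnt9a (1.83 ± 0.924 against 23.3 ± 8.49 CPM) and Wnt11 (1.70 ± 0.833 against 21.3 ± 8.22 CPM) and the antagonists Sostdc1, Sfrp2 (19.8 ± 13.2 against 248 ± 82.1 CPM), Sfrp5 and Dkk2 (21.3 ± 15.9 against 181 ± 32.6 CPM). Of 45 genes of the Bmp and TGF-beta family, 6 were higher and 22 lower (62.2% called, median -0.77). Beside Bmp7 the ligands Bmp4 (18.6 ± 6.82 against 5.46 ± 1.91 CPM), Bmp5 and Tgfb2 were higher, and Tgfb3, Inhba, the receptor Bmpr1b and the inhibitor Id4 were lower (log2 -2.43, -2.49 and -2.77 for the last 3).

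Of 27 fibroblast growth factor genes, 9 were higher and 7 lower (59.3% called). Fgf9, a ligand of nerve and mesothelium, was at 17.7 ± 4.88 against 4.88 ± 0.648 CPM, and the feedback targets Etv5 (197 ± 41.0 against 69.7 ± 12.4 CPM) and Spry4 (log2 0.97) were also higher. Fgf1 (log2 -2.82) and Fgf7, a ligand made by mesenchyme for epithelium (log2 -3.63), were lower. Of 27 Notch genes, 6 were higher and 8 lower (51.9% called), with the effectors Hes5, Hey2 and Heyl and the receptor Notch2 (log2 1.55) among the higher, and the ligands Jag1 (log2 -2.55), Dll1 and Dlk1 and the effector Hey1 (log2 -1.92) among the lower. In the hedgehog pathway 8 of 16 genes were lower and the others not called. The ligand Dhh was lower together with its targets Gli1 (6.52 ± 2.48 against 32.9 ± 3.36 CPM) and Hhip and the coreceptor Cdon (log2 -3.07).

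Neurotrophic factors and receptors gave 9 lower and 5 higher of 23, with 2 or 3 higher without outer ONL library 1 or 4 or trigeminal nerve library 1 or 3. Gfra2, the neurturin receptor, was lower, at 9.90 ± 4.30 against 173 ± 8.72 CPM, beside Gfra3, Ntrk3 and Ngfr. The higher ones included Ptn and its relative Mdk, midkine (706 ± 153 against 388 ± 43.0 CPM), and Mdk was not called without outer ONL libraries 2 and 4 (adjusted p = 0.0756). In the retinoic acid pathway 9 of 19 were lower and 2 higher. Crabp1, a binding protein for retinoic acid, had 10.3, 27.8, 19.4 and 13.1 CPM against 388, 300.3 and 350.5 CPM (log2 -4.29), and Stra6, the receptor for vitamin A uptake, was higher (106 ± 18.6 against 39.95 ± 5.96 CPM).

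**Figure D5:**
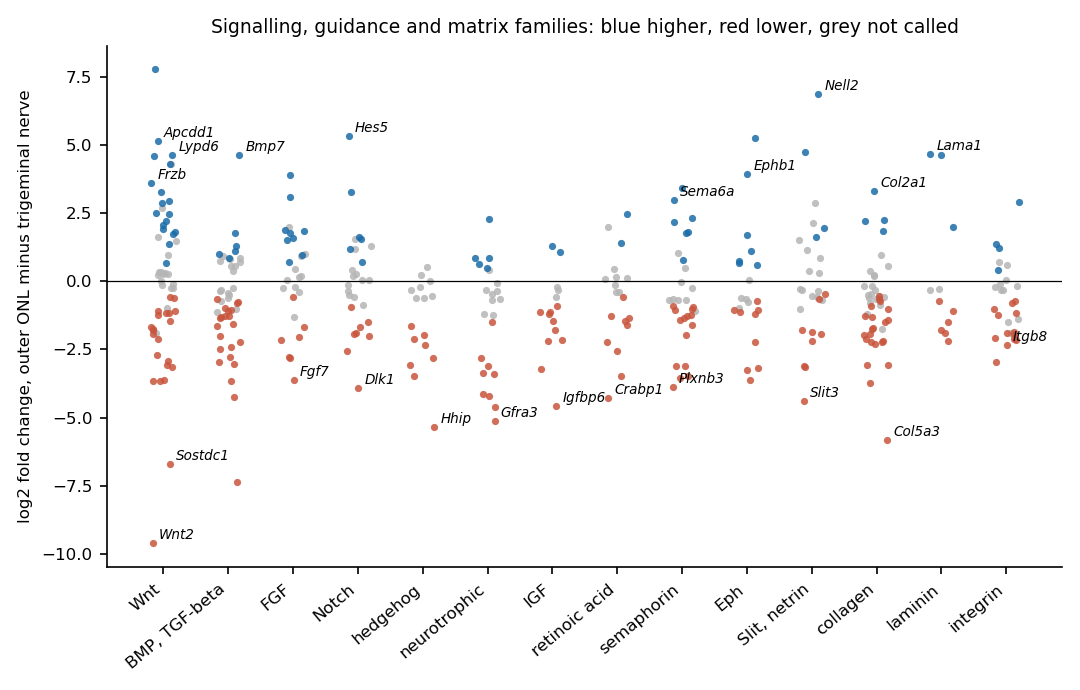
Log2 fold changes of tested members of 14 signalling, guidance and matrix families, blue where higher, red where lower and grey where not called in outer ONL. Points are spread sideways only to keep them apart, and values of genes at or under 3 counts in 1 group, such as Wnt2, are fitted and no bound; every family but hedgehog has called members on both sides.

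Of 31 semaphorins, plexins and neuropilins, which guide axons, 7 were higher and 15 lower (71.0% called). Besides Sema3b, the secreted Sema3c was lower (2.07, 16.51, 26.9 and 14.3 against 158, 174 and 169 CPM), as were the receptors Plxnb3 (4.15 ± 2.104 against 61.8 ± 2.17 CPM) and Plxna4 (log2 -3.11). Sema3a, which steers sensory axons, was higher (18.9, 29.7, 54.4 and 37.5 against 6.37, 9.96 and 7.09 CPM), as were Sema3d (log2 1.80) and the receptor Plxnb1 (72.1 ± 10.4 against 14.4 ± 2.42 CPM). Of 21 Eph receptors and ephrins, 7 were higher and 9 lower (76.2% called). Ephb1 had 38.4, 26.8, 30.7 and 37.1 CPM against 1.38, 2.36 and 2.87 CPM and Efna5 134 ± 13.54 against 40.7 ± 7.62 CPM, both higher, and the receptors Epha3 (7.98 ± 7.14 against 73.1 ± 17.2 CPM), Epha4 (7.23 ± 2.84 against 69.6 ± 5.85 CPM) and Epha5 (4.94 ± 3.02 against 61.8 ± 7.42 CPM) were lower. In the Slit, Robo, netrin and Nell families 4 of 27 were higher and 9 lower (48.1% called). Slit2 (10.8 ± 5.47 against 94.4 ± 14.1 CPM), Slit3 (1.58 ± 0.941 against 33.5 ± 9.74 CPM) and Ntn1, netrin-1 (3.76 ± 1.33 against 32.2 ± 1.04 CPM), were lower, and the receptor Robo1 (52.9 ± 11.4 against 17.0 ± 2.28 CPM) was higher beside Nell2.

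Among transcription factors, the share called in the families with more than 1 tested gene ranged from 35.7% of Fox genes, near the 31.3% of all genes, to 73.3% of Sox genes. Of 15 Sox genes, 6 were higher and 5 lower (3 lower without outer ONL library 1, 2 or 4 or trigeminal nerve library 2 or 3), with Sox8 and Sox5 higher and Sox18, a factor of vessels (18.9 ± 7.26 against 62.8 ± 28.3 CPM), lower. Of 36 genes of the Nfi, Zic, Tfap2, Gli, Egr and Klf families, 9 were higher and 16 lower (69.4% called). Zic5 had 7.67, 13.4, 12.6 and 10.2 CPM in outer ONL and 3 or fewer counts in each trigeminal library, at least 106-fold higher, while Klf14 (0.563 ± 0.281 against 16.1 ± 1.10 CPM) and Nfix (6.20 ± 3.33 against 47.8 ± 5.50 CPM) were lower. Of 69 genes found by homeobox family names, 19 were higher and 19 lower (55.1% called), with 10 higher without outer ONL libraries 2 and 4. Alx4 (171 ± 30.1 against 18.1 ± 5.48 CPM) was higher, and Lhx6 (0.600 ± 0.0981 against 13.54 ± 3.85 CPM) and Prrx1 (21.03 ± 4.96 against 162 ± 14.2 CPM) were lower with Lhx8, Msx1 and Pax3. Of 28 Fox genes, 4 were higher and 6 lower, and of 38 bHLH genes 15 were higher and 9 lower (63.2% called). Of the 39 Hox genes, which pattern the trunk and not the face, 1 passed the filter, Hoxd8, and it was lower (0.693 ± 0.365 against 4.16 ± 0.803 CPM).

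More solute carrier genes were called higher than lower. Of 295 solute carriers by symbol, 78 were higher and 38 lower (39.3% called, beside 31.3% of all genes). Slc15a2, a peptide transporter of glia, was at 108 ± 23.99 against 1.31 ± 0.581 CPM and Slc13a3, a dicarboxylate transporter, at 159 ± 33.0 against 4.17 ± 2.22 CPM. Slc27a1, a fatty acid transporter, was at 509 ± 166 against 80.3 ± 4.02 CPM and the cystine carrier Slc7a11 at 97.7 ± 26.8 against 17.2 ± 12.7 CPM. Of 78 potassium channel genes, 21 were higher and 17 lower (48.7% called). Kcns3, a subunit that opens no channel by itself, fell by 5.01 on the log2 scale (0.308 ± 0.212 against 10.2 ± 1.19 CPM). Kcna6 (5.18, 11.3, 17.7 and 10.8 against 208, 198 and 158 CPM), Kcna1 (3.53 ± 2.31 against 42.1 ± 6.19 CPM) and Kcnj10, the inward rectifier of satellite glia and astrocytes (2.35 ± 1.05 against 50.5 ± 4.07 CPM), were lower too.

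Of proliferation genes, 23.1% were called, below the share of all genes. Of 39 cell cycle genes, 5 were higher (3 without trigeminal nerve library 1) and 4 lower, with Mki67 at 252 ± 32.7 against 219 ± 34.3 CPM and Top2a at 334 ± 36.1 against 294 ± 34.3 CPM, neither called. The lower ones were Ccnd1 (54.3 ± 9.89 against 202 ± 22.0 CPM), Ccnd3 (127 ± 43.9 against 484 ± 80.5 CPM), E2f1 and the inhibitor Cdkn1c (74.2 ± 30.0 against 379 ± 52.6 CPM). Of 24 genes of cholesterol synthesis and uptake, 3 were higher and 2 lower (20.8% called, beside 31.3% of all genes). The number higher was 1 without trigeminal nerve library 3, and the number lower was 0 or 1 without outer ONL library 1, 2 or 4 or any 1 trigeminal library. Ribosomal protein genes, with some relatives by name, gave 2 higher and 11 lower of 92 (14.1% called, also below all genes). The number of lower ones ranged from 1 without trigeminal nerve library 1 to 19 without library 2, and was 6 or 7 without outer ONL library 1, 3 or 4 and 18 without library 2. Immediate early and stress genes, which respond within minutes to handling of tissue as well as to signals, gave 19 lower and 1 higher of 22 (median -1.55), or 12 lower without outer ONL libraries 2 and 4, and their levels summed to 563 to 691 CPM in outer ONL and 1049 to 1154 CPM in trigeminal nerve. Atf3 had 9.81, 4.05, 7.16 and 5.04 CPM against 57.1, 47.5 and 49.0 CPM and Egr1 5.87, 11.6, 25.9 and 12.5 against 42.3, 59.7 and 72.4 CPM. The part of tissue handling in any difference was not tested.

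Long intergenic and antisense RNA genes were called in a smaller share than all genes, of which 31.3% were called. Of 545 tested long intergenic RNAs, 91 were higher and 64 lower (28.4% called), and of 490 genes annotated as antisense, 79 were higher and 30 lower (22.2% called). Whether the counting used strand is not stated, so reads of an antisense gene and its partner may not be separate. By comparison 2379 of 15112 protein coding genes were higher and 2702 lower.

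The other E16.5 groups, which entered the same fit, are given side by side for the leading genes, as means over 4 libraries each. Fabp7 was at 16960 ± 2380 CPM in inner ONL, the part next to the bulb, and 1577 ± 757 CPM in olfactory nerve of the mucosa, beside 17670 in outer ONL and 78.4 in trigeminal nerve. Npy was at 1584 ± 419 and 37.1 ± 13.49 CPM, and Prss56 at 644 ± 229 and 15.04 ± 10.97 CPM in the same 2 groups. Sostdc1 was at 0.608 ± 0.730 CPM in inner ONL and 109 ± 7.34 CPM in olfactory nerve, Mbp at 19.9 ± 5.78 and 49.1 ± 9.70 CPM and Gfra3 at 3.95 ± 3.13 and 84.7 ± 9.56 CPM. Slc6a13 was at 52.8 ± 25.7 and 6.88 ± 9.86 CPM, below its 183 CPM in outer ONL on both sides. These comparisons share the trigeminal libraries, so no overlap between them was computed.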

How the data were processed

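RNA of laser-cut nerve pieces was amplified with SMART-seq V4, made into Nextera XT libraries and sequenced as paired-end reads. Per the labels and the study's methods, the authors aligned reads with TopHat2 2.1.0 to mm10 with the Ensembl GRCm38.84 annotation and deposited HTSeq gene counts, not normalized, with the strand setting not given in the sources used here. Symbols, positions and biotypes come from the GENCODE M21 annotation of GRCm38, which matched 47310 of 47729 identifiers; 1 row without an identifier stayed out.

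The 15 libraries of E16.5 (4 outer ONL, 4 inner ONL, 4 olfactory nerve, 3 trigeminal nerve) were fitted with 1 coefficient per group in edgeR 4.0.16 (R 4.3.3; TMM, filterByExpr, glmQLFit, glmQLFTest), so that the 4 groups share 1 estimate of the spread, and outer ONL was set against trigeminal nerve. Libraries of earlier stages stayed out because earlier work on these data found some at odds with their labels, and a fit of all libraries was an alternative. Genes with a Benjamini-Hochberg adjusted p under 0.05 were called. The script was tested on simulated data with known fold changes. Total counts lay between 14808477 and 32508725, and thinning trigeminal nerve to the depth of outer ONL was 1 alternative. The others were DESeq2 1.42.0, library totals or upper quartile scaling, other filters and thresholds, other sets of libraries, a replicate block and leaving out libraries. The groups share embryos, but replicate numbers did not pair the samples throughout.

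Genes were named by rule: the 15 largest rises and falls among called genes whose libraries did not overlap and whose mean reached 50 CPM in 1 group, the 5 smallest adjusted p in each direction, the study's in situ genes, defining markers, and in each list up to 4 called members with the largest changes and a mean of 10 CPM or more in 1 group. Other list members were named as examples after their values were seen. The comparison, the lists and this rule were chosen with earlier results of these data known. No list was given a set test. Some genes that the rule names are counted in their lists but not reported here.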

Additional observations from a re-analysis of the deposited data

Results flagged for a closer look

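In the 4 outer ONL libraries, 238 named genes and 58 summed lists were tested for 1 library far from the other 3 (Dixon's test at its 95% limit), a test that chance alone passes in about 1 of 20 groups, and 29 passed, 14 of them through library 1. The 3 trigeminal libraries were too few to test. No explanation was weighed.

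Library 1 stood low for Acta2 (2.14 CPM), Bmp4 (8.36 CPM), Gfra2 (3.45 CPM), Lama2 (26.5 CPM), Matn1 (1.31 CPM), Nrp1 (53.3 CPM) and Slc7a11 (57.6 CPM). Lama2, Nrp1 and Acta2 are used by mesenchyme or smooth muscle, and Matn1 by cartilage. Library 1 also stood low in the summed levels of the insulin-like growth factor list (2643 CPM), the olfactory sensory neuron list (212 CPM) and the potassium channel list (356 CPM). It stood high for the glial genes Mmd2 (1881 CPM) and Ptn (7809 CPM) and in the summed levels of the genes seen in all OECs (12240 CPM) and of the neurotrophic factor list (9385 CPM), both of which hold Ptn.

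Library 2 stood high for Ibsp (9.98 CPM), Pou3f1 (2.24 CPM) and Sox2 (1.39 CPM) and low for Wnt6 (36.5 CPM). Library 3 stood high for Ctnnal1 (34.4 CPM), Fgf7 (3.61 CPM), Msx1 (16.4 CPM), Myog (1.45 CPM), Zic4 (29.4 CPM), Pecam1 (98.6 CPM) and Rgs5 (186 CPM), the last 2 vessel genes, and in the summed level of the endothelium list (1451 CPM), and low for Spock2 (61.2 CPM). Library 4 stood high for Gnrh1 (69.6 CPM) and Stra6 (134 CPM).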

How the results depend on the processing

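The number of genes called was within 1.5 times 5579 under every alternative but 1. It was 5972 with DESeq2, 5807 with library totals, 5646 with upper quartile scaling, 5495 without the filter, 5466 with at least 1 CPM in 3 libraries, 5384 with thinned trigeminal counts, 4836 with the 2 groups alone, 3922 with all 31 libraries, 3805 with a log2 fold change of at least 1, 4256 without outer ONL libraries 2 and 4 (chosen after seeing the data), and 4678 to 5684 with 1 library left out. With the replicate number as a block it fell to 3317 (1494 higher and 1823 lower). The numbers did not pair the samples throughout: deviations of libraries with the same number correlated at 0.279, -0.337 and -0.155 over 10538 genes, and not every library correlated best with its own number. By sex-linked genes, the outer ONL and trigeminal libraries numbered 2 differed in sex, as did those numbered 3, so neither pair came from the same embryo. The groups share embryos, but the labels do not say which libraries do. Between unlike numbers the correlation ran from -0.319 to 0.508. The highest was for outer ONL library 3 and trigeminal nerve library 2, each the only female library of its group by sex-linked genes. Trigeminal nerve library 1 correlated best with outer ONL library 1 (0.279) and trigeminal nerve library 3 with outer ONL library 4 (0.322). The main fit treats libraries of shared embryos as independent. No fit with the embryo as a term was made, so a call lost under the block is no sign of a weaker effect.

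Of 237 named genes called, 19 lost the call with all 31 libraries, 9 each under the block, under the log2 threshold and without outer ONL libraries 2 and 4, 2 with the 2 groups alone, 1 (Hes1) under each other scaling, and 8 without some 1 library; the cause was not tested. The 1 called gene that changed sign was Stmn2 (log2 -0.11 without libraries 2 and 4). Genes not called changed sign near 0: Dcn under the block (-0.10) and without outer ONL libraries 2 and 4 (-0.13), and from -0.086 to 0.23 with 1 library left out, Lum from -0.17 to 0.11 and Erbb3 from -0.014 to 0.19 with 1 library left out, and Ednrb without libraries 2 and 4 (0.085). Amplification from small pieces, the lower depth of outer ONL and 3 trigeminal embryos limit what low genes can show, and the tissue beside each nerve cannot be told apart from its glia.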
